A study of Mus musculus with 36 samples.

Results

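Voltage-gated ion channel genes linked to epilepsy or ataxia were examined in the brains of mice that lack tripeptidyl peptidase 1, the lysosomal protease missing in the CLN2 form of neuronal ceroid lipofuscinosis. The group holds 28 genes, chosen by name and function with earlier results of these data known, of 55450 genes listed in the 1-month count tables. It comprises 6 sodium channel subunits, 13 calcium channel subunits, 8 potassium channel pores and 1 pacemaker channel, and all 28 passed the filter on low counts at each age. RNA-seq libraries were made from forebrain/midbrain (F/M) and cerebellum (Cb) at 1, 2 and 3 months of age, with 3 mice per group and 36 libraries in all. Tpp1-/- mice, in which the gene was disrupted by gene targeting, were compared with unaffected mice of the same age from heterozygous crosses. Controls were wild type apart from replicate 3 of 1 month in both regions, which was Tpp1+/-. All mice of 2 months were male. Each group of 1 and 3 months held both sexes, with more males than females and the same split in every group. The targeted gene followed the labels, at 16.1 to 27.8 CPM (counts scaled to library size by TMM) in the 18 Tpp1-/- libraries and 42.1 to 110.8 CPM in the 18 controls. Library totals ran from 10609896 to 29942380 counts with a median of 21049839. Cortex and striatum markers separated the regions as labelled, with summed levels of 725.5 to 861.3 CPM in F/M libraries and 15.7 to 31.8 CPM in Cb libraries. The annotation release and the strand setting or version of the counting differed between ages, so levels at different ages were not tested against each other.

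Voltage-gated channels open or close as the membrane potential changes and so set the threshold, shape and pattern of neuronal firing. Sodium channel alpha subunits carry the rising phase of the action potential, calcium channels couple depolarization to transmitter release and burst firing, and potassium channels repolarize the membrane and limit repeated firing. Mutations in many of these genes cause epilepsy or ataxia, and seizures and ataxia are features of CLN2 disease. In cerebellum, Purkinje and granule cells carry a channel complement of their own, led by P/Q-type and T-type calcium channels and fast Kv3 potassium channels.

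Controls were described first, because the channel genes differed widely in level between the regions. Levels between genes were compared as CPM per kilobase of exon. At 3 months Scn2b, an auxiliary sodium channel beta subunit, had the highest level of the group in both regions, at 88.7 ± 1.1 CPM per kb in F/M and 105.4 ± 9.8 CPM per kb in Cb (mean ± SD, n = 3). The lowest was Cacna1h, the Cav3.2 T-type calcium channel pore, at 0.591 ± 0.020 CPM per kb in Cb, and Cacna1d, an L-type pore, at 4.59 ± 0.47 CPM per kb in F/M. When the 28 genes were ordered by level in the 3-month controls, the ranges of the 3 libraries overlapped for 18 of 27 neighbouring pairs in Cb and 13 of 27 in F/M, so the order of such neighbours was not resolved.

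**Figure D1:**
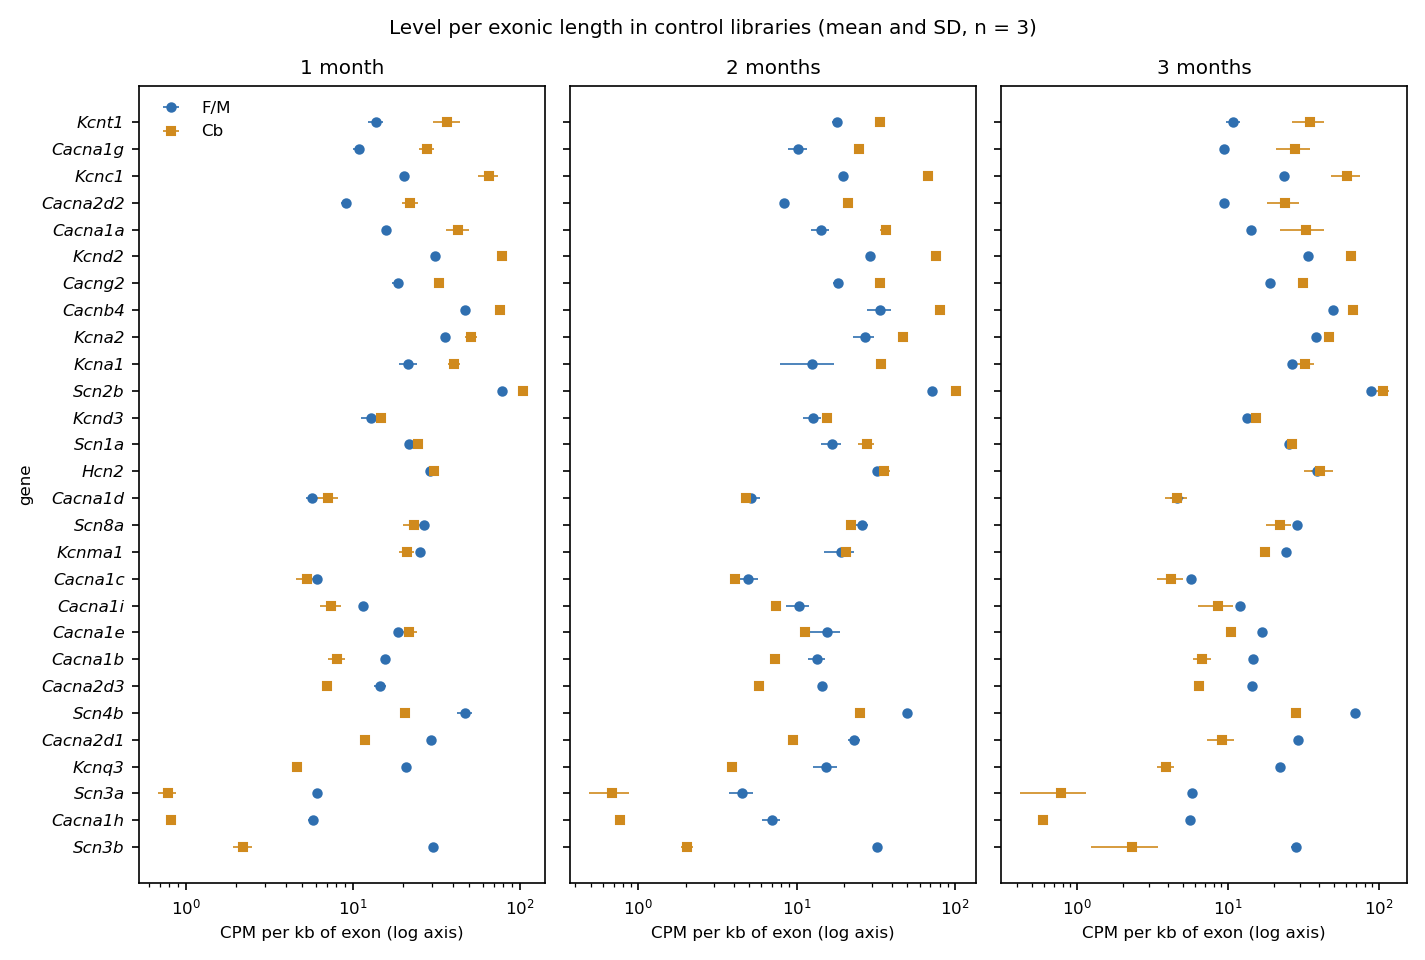
Level of each of the 28 channel genes in control libraries as CPM per kilobase of exon on a log axis, one panel per age, with the mean and SD of 3 libraries for F/M (circles) and Cb (squares). Genes are ordered by the ratio of Cb to F/M at 3 months, from Scn3b with a log2 difference of -3.60 at the bottom to Kcnt1 with 1.69 at the top.

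In edgeR's quasi-likelihood test, a gene was called when its Benjamini-Hochberg adjusted p was under 0.1 and its fold change was at least 1.5. Cb differed from F/M in controls for 18, 19 and 16 members at 1, 2 and 3 months. The background was 36.9%, 39.3% and 37.7% of all genes tested, and members called higher in Cb numbered 9, 11 and 7 against 15.8%, 17.4% and 17.8% of genes. Genes that were higher in Cb at all 3 ages included Kcnc1, the Kv3.1 channel of fast-spiking cells, with log2 differences of 1.69, 1.77 and 1.40. Cacna1a, the P/Q-type pore mutated in episodic and spinocerebellar ataxia, was higher in Cb by 1.43, 1.37 and 1.21 on the log2 scale. Cacna1g, a T-type pore, was higher by 1.35, 1.27 and 1.55, and Kcnt1, a sodium-activated potassium channel linked to early epilepsy, by 1.42, 0.89 and 1.69. The alpha2delta subunit gene Cacna2d2, disrupted in the ducky mouse, and the Kv4 pore gene Kcnd2 were also higher in Cb at each age.

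The genes lower in Cb at every age were led by Scn3b, Cacna1h, Scn3a and Kcnq3. Scn3b, a sodium channel beta subunit, was lower by log2 values of -3.77, -3.98 and -3.60, and Scn3a, a Nav1.3 pore that is abundant in the developing brain, by -2.97, -2.72 and -2.88. Cacna1h was lower by -2.81, -3.18 and -3.25, and Kcnq3, a subunit of the M-current mutated in neonatal seizures, by -2.17, -1.98 and -2.50. Cacna2d1, Cacna2d3, Cacna1b and Scn4b were lower in Cb by smaller amounts, between -0.90 and -1.67. Both pores of the L-type, Cacna1c and Cacna1d, did not pass at any age, nor did Scn8a, Scn2b, Kcnd3, Kcnma1 or Hcn2. In bulk tissue, fewer cells of a type and less RNA per cell cannot be told apart, here and in every comparison that follows.

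The genotype comparison asked whether channel transcripts changed in Tpp1-/- brain as the mice aged from 1 to 3 months. Of the 6 comparisons of region and age, 5 called no member, and Cb at 2 months called 3, all of them lower in Tpp1-/-. In F/M the count of members called was 0 at 1, 2 and 3 months, beside a background of 0.0112%, 0.737% and 0.464% of all genes tested. In Cb the counts at these ages were 0, 3 and 0, beside 0.0112%, 2.05% and 0.859%. DESeq2 and limma-voom also called 0 members in each of the 5 comparisons without a call. At an unadjusted p under 0.05, members numbered 0, 3 and 1 in F/M at 1, 2 and 3 months against backgrounds of 1.89%, 16.9% and 5.94%, and 3, 5 and 1 in Cb against 7.66%, 9.67% and 6.49%. The median log2 fold change of the 28 members was -0.07, 0.04 and -0.05 in F/M and -0.13, 0.00 and -0.12 in Cb, where the median of all genes tested was 0.00 or, in Cb at 1 month, 0.01. With 1 library left out in turn, the F/M median ran from -0.089 to -0.052 at 1 month, from -0.064 (without control replicate 2) to 0.144 (without control replicate 1) at 2 months and from -0.067 to -0.042 at 3 months. In Cb it ran from -0.225 to -0.018, from -0.015 to 0.044 and from -0.2 to 0.05 at the same ages. With the median deviation of other genes spanning over 100 kb in each library as a covariate (the long-gene score), the members' median was 0.012, -0.068 and -0.029 in F/M and 0.028, -0.018 and -0.037 in Cb, so its sign turned in F/M at 1 and 2 months and in Cb at 1 month. With genes over 200 kb in that score, the F/M values were -0.003, -0.047 and 0.001. Members with a log2 fold change below 0 numbered 22, 9 and 19 of 28 in F/M at 1, 2 and 3 months, beside 51.1%, 49.1% and 50.7% of all genes tested. In Cb they numbered 23, 15 and 23, beside 48.6%, 49.9% and 50.7%.

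**Figure D2:**
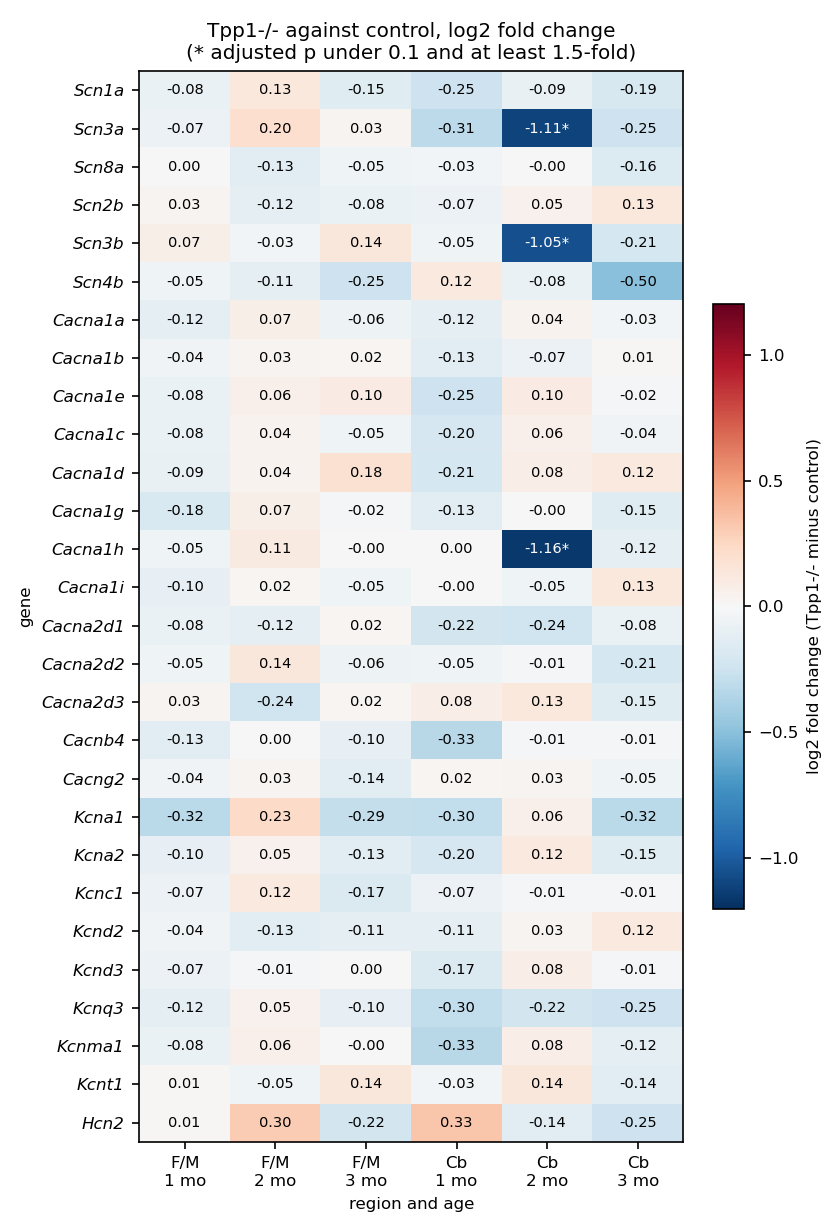
Log2 fold change of each channel gene in Tpp1-/- against control libraries (rows: 28 genes grouped by function; columns: region and age), with an asterisk where the gene was called. The 3 asterisks stand in the Cb column of 2 months, at Scn3a with -1.11, Scn3b with -1.05 and Cacna1h with -1.16.

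Cacna1h, Scn3a and Scn3b were 2.24-fold, 2.16-fold and 2.08-fold lower in Tpp1-/- cerebellum at 2 months. The 3 genes were 3 of 28 members against 1.8% of all genes tested that were called lower in that comparison. Cacna1h (ENSMUSG00000024112, chromosome 17, 25374285 to 25433783, minus strand, GRCm38) encodes a low-voltage-activated channel that supports rebound and burst firing. Its level was 7.30, 7.50 and 7.59 CPM in the controls and 4.184, 2.498 and 3.124 CPM in the Tpp1-/- libraries. Every Tpp1-/- library lay below every control, and the log2 fold change was -1.16 ± 0.17 (SE; edgeR adjusted p = 0.000325).

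Scn3a (ENSMUSG00000057182, chromosome 2, 65457118 to 65567627, minus strand) measured 6.67, 11.2 and 7.54 CPM in the controls and 4.55, 3.50 and 3.69 CPM in the Tpp1-/- libraries of 2 months. The groups did not overlap, although control replicate 2 stood well above the other controls. The log2 fold change was -1.11 ± 0.19 (SE; edgeR adjusted p = 0.00161). Scn3b (ENSMUSG00000049281, chromosome 9, 40269217 to 40291618, plus strand) measured 10.01, 11.98 and 11.53 CPM in the controls and 6.29, 4.45 and 5.31 CPM in Tpp1-/-. Again every Tpp1-/- library was below the controls, with a log2 fold change of -1.05 ± 0.11 (SE; edgeR adjusted p = 8.82e-06). These were low levels in Cb, with 50 to 166 counts per library for Cacna1h, 59 to 247 for Scn3a and 85 to 265 for Scn3b. All 3 calls held without any single library, with DESeq2, with limma-voom and with each other scaling tried. In a fit of only these 6 Cb libraries with no fold minimum, a setting chosen after the data were seen, 5 members were lower at an edgeR adjusted p under 0.1 against a background of 3.1%, the other two being Cacna2d1 (log2 -0.23, adjusted p = 0.0300) and Kcnq3 (log2 -0.21, adjusted p = 0.0724).

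At 2 months the same genes showed no such difference in F/M. Cacna1h was at 76.7, 58.4 and 68.8 CPM in F/M controls and 79.7, 64.9 and 75.5 CPM in Tpp1-/-, Scn3a at 64.8, 45.4 and 58.7 against 62.0, 65.5 and 66.7 CPM, and Scn3b at 182.7, 173.8 and 174.8 against 167.5, 184.7 and 166.6 CPM. The groups overlapped for each of the 3 genes. The difference between the regions in the response to genotype was tested as an interaction, called at an adjusted p under 0.1 with no fold minimum. It was -1.31 ± 0.23 for Scn3a (SE; edgeR adjusted p = 0.00270), -1.27 ± 0.20 for Cacna1h (adjusted p = 0.000966) and -1.02 ± 0.14 for Scn3b (adjusted p = 0.000165). In all, 5 members differed between regions at 2 months against a background of 2.97%, the other two being Hcn2 and Cacna2d3. At 1 month and 3 months edgeR called 0 members in this test, with backgrounds of 0% and 0.00581%. At an unadjusted p under 0.05, 1 member passed at each of those ages against 1.94% and 3.51% of genes, and DESeq2 and limma-voom called 0 members there.

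**Figure D3:**
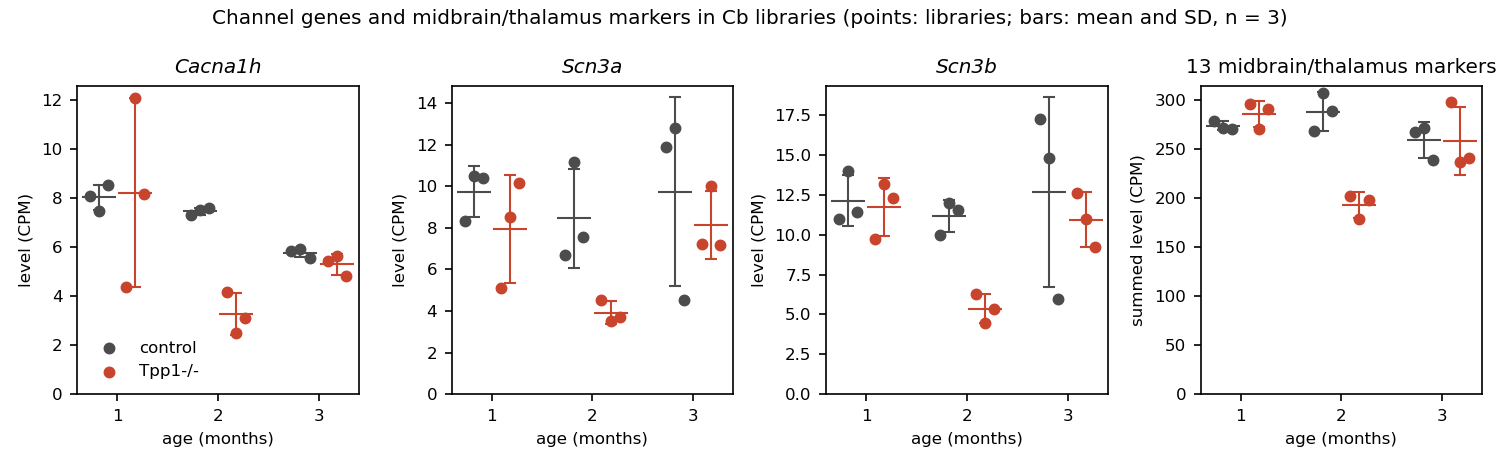
Level in CPM of Cacna1h, Scn3a and Scn3b in each of the 18 Cb libraries by age (grey control, red Tpp1-/-; points are libraries, bars the mean and SD of 3), and the summed CPM of 13 midbrain and thalamus markers in the same libraries. At 2 months all 3 Tpp1-/- libraries lay below all 3 controls in each panel, and the marker sum was 178.0 to 202.3 CPM against 267.8 to 307.1 CPM.

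At the other ages the 3 genes did not separate the genotypes in Cb. Cacna1h was at 8.10, 7.48 and 8.52 CPM in controls and 4.39, 12.1 and 8.18 CPM in Tpp1-/- Cb at 1 month, and at 5.85, 5.92 and 5.56 against 5.42, 5.63 and 4.83 CPM at 3 months. The 1-month Tpp1-/- libraries spanned a wider range than the controls on both sides. Scn3b at 3 months was at 17.3, 14.8 and 5.97 CPM in controls and 12.6, 11.0 and 9.20 CPM in Tpp1-/-, and Scn3a at 11.9, 12.8 and 4.51 against 7.22, 10.03 and 7.18 CPM. Control replicate 3 of 3 months was thus the lowest of its 6 libraries for both genes. Without that library, Scn3a was called lower in 3-month Tpp1-/- Cb with a log2 fold change of -0.60 ± 0.14 (SE; edgeR adjusted p = 0.0872). Scn3b was then -0.55 ± 0.13 (adjusted p = 0.0816), which is under the fold minimum.

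The change of the genotype effect between 2 and 3 months in Cb was tested in a fit of all 36 libraries. It called 1 member, Cacna1h, against a background of 1.44% of genes, with a log2 difference of 1.05 ± 0.29 (SE; edgeR adjusted p = 0.0787), the effect at 3 months being the higher. Scn3b differed by 0.85 (SE 0.29, adjusted p = 0.278) and Scn3a by 0.85 (SE 0.36, adjusted p = 0.573), neither of which passed. In F/M this test called 0 members with edgeR, DESeq2 or limma-voom against a background of 0.393%, and 2 members had an unadjusted p under 0.05 against 8.12% of genes. Age cannot be told apart from the annotation release and strand setting, which differed between 2 and 3 months. The call for Cacna1h was lost with limma-voom (0 members called). It was also lost in 10 of the 12 fits that left out a single Cb library of those ages, with log2 differences from 0.88 to 1.30 and adjusted p values up to 0.308. The 2 fits that kept it were those without Tpp1-/- replicate 1 of 2 months and without Tpp1-/- replicate 3 of 3 months.

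The 3 genes lower in Tpp1-/- Cb at 2 months were also the 3 members with the largest deficit in Cb relative to F/M. In the 3-month controls, which take no part in the 2-month comparison, 4 members were lower in Cb by a log2 value of 2 or more, and 3 of them were the called genes. The fourth, Kcnq3, was at 54.5, 59.0 and 58.8 CPM in 2-month Cb controls and 50.8, 50.6 and 46.6 CPM in Tpp1-/-. Its groups did not overlap, but with a log2 fold change of -0.22 ± 0.10 (SE; edgeR adjusted p = 0.505) it did not pass. In 3 of 16 alternatives the adjusted p of Kcnq3 was under 0.1. With the long-gene score as a covariate it was 0.0207 in edgeR (log2 -0.24 ± 0.06), still under the fold minimum. For the other 24 members no call was made, and the median log2 fold change was -0.08 in the 4 members with a control difference of 1 to 2 and 0.04 in the 20 others. The share called among all genes lower in Cb by a log2 value of 2 or more was not counted.

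Markers from a midbrain and thalamus list moved in the same libraries. The sum of the list overlapped between the regions in controls of 1 and 2 months, at 269.8 to 278.6 CPM in Cb and 237.2 to 279.6 CPM in F/M at 1 month, and 267.8 to 307.1 against 213.5 to 277.8 CPM at 2 months. At 3 months it was lower in control Cb, at 238.2 to 271.2 against 305.4 to 315.0 CPM. Of 13 midbrain and thalamus markers, 9 were called lower in 2-month Tpp1-/- Cb, and their summed level was 178.0 to 202.3 CPM against 267.8 to 307.1 CPM in the controls. Gata3 was at 0 counts in all 3 Tpp1-/- libraries, and Shox2 fell from 7.25, 13.2 and 10.3 CPM to 0.182, 0.227 and 0.250 CPM. Tcf7l2 measured 31.8, 37.7 and 35.5 CPM in the controls and 3.57, 5.09 and 4.69 CPM in Tpp1-/-. Barhl2, Otx2, Prkcd and Lef1 were not called. At 1 and 3 months 0 of the 13 markers were called in Cb, with 0 and 1 at an unadjusted p under 0.05. The summed level in Cb at 3 months was 267.4, 271.2 and 238.2 CPM in controls and 297.5, 236.1 and 240.3 CPM in Tpp1-/-, so control replicate 3, the library lowest in Scn3a and Scn3b, was in the range of Tpp1-/- replicates 2 and 3.

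With the mean level of these markers in each library as a covariate, 0 members were called in Cb at 2 months. Scn3a then had a log2 fold change of 0.54 ± 0.98 (SE), Scn3b -0.64 ± 0.63 and Cacna1h -1.44 ± 0.92, each with an edgeR adjusted p of 0.997. The marker level separated all 3 Tpp1-/- libraries from all 3 controls, so genotype and marker level cannot be told apart in these 6 libraries. Of the markers of cerebellar cell types, 0 of 10 for granule cells and 0 of 9 for Purkinje cells were called, with 1 and 3 higher at an unadjusted p under 0.05. Summed Purkinje markers were at 9493 to 11300 CPM in Tpp1-/- and 9013 to 9213 CPM in controls, and summed granule cell markers at 6938 to 7432 against 6667 to 6941 CPM. Of 10 choroid plexus markers, 6 were called higher in the same comparison, at summed levels of 1603 to 1785 against 976.7 to 1273 CPM. The part of choroid plexus in the 3 channel values was not tested.

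Other channel genes outside the group were lower in the same Cb libraries. Of 70 further sodium, calcium, potassium and HCN channel genes tested at 2 months, 12 were called lower and 0 higher, most of them potassium channel genes. The background was 1.8% of all genes tested called lower and 0.25% called higher. Examples of the called genes were Kcnv1 with a log2 value of -1.92, Kcnh5 with -1.74, Kcng1 with -1.64, Kcnip2 with -1.49 and Kcnc2 with -1.42. Kcnc2, the Kv3.2 channel, was at 27.0, 32.7 and 27.6 CPM in controls and 14.2, 7.77 and 10.2 CPM in Tpp1-/-, while its relative Kcnc1 was at 642.7, 649.1 and 624.0 against 602.2, 635.8 and 662.5 CPM. The Kcnc2 groups were far apart and those of Kcnc1 overlapped. All 12 called genes were among the 24 further channel genes that were lower in Cb than in F/M by a log2 value of 2 or more in the 3-month controls, and 0 calls came from the 10 with a difference of 1 to 2 and the 34 others. The share called lower among all genes with such a deficit in Cb was not counted. Whether this split is particular to channel genes was therefore not tested. With the midbrain and thalamus score as a covariate, edgeR called 0 of the 70 genes, with 6 at an unadjusted p under 0.05, and as for the members that score and genotype cannot be told apart in these libraries.

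Scn4b was the member with the smallest p at 3 months in both regions. It encodes a sodium channel beta subunit that takes part in resurgent current in fast-firing cells. In Cb at 3 months it was at 140.4, 134.7 and 144.6 CPM in controls and 98.9, 104.4 and 93.8 CPM in Tpp1-/-. The groups did not overlap, and the log2 fold change was -0.50 ± 0.08 (SE; edgeR adjusted p = 0.00846), 1.41-fold lower and so under the fold minimum of 1.5. With no fold minimum it was 1 of 28 members against a background of 0.952%. In F/M at 3 months Scn4b was at 346.0, 346.0 and 344.3 CPM in controls and 284.6, 308.5 and 278.8 CPM in Tpp1-/-, again without overlap, with a log2 fold change of -0.25 ± 0.08 (SE; edgeR adjusted p = 0.443). At 1 month and 2 months its groups overlapped in both regions. In Cb its adjusted p stayed under 0.1 in 16 of 17 alternative settings, with log2 values from -0.54 to -0.46. The exception was the fit of only the 6 Cb libraries, with an edgeR adjusted p of 0.395.

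**Figure D4:**
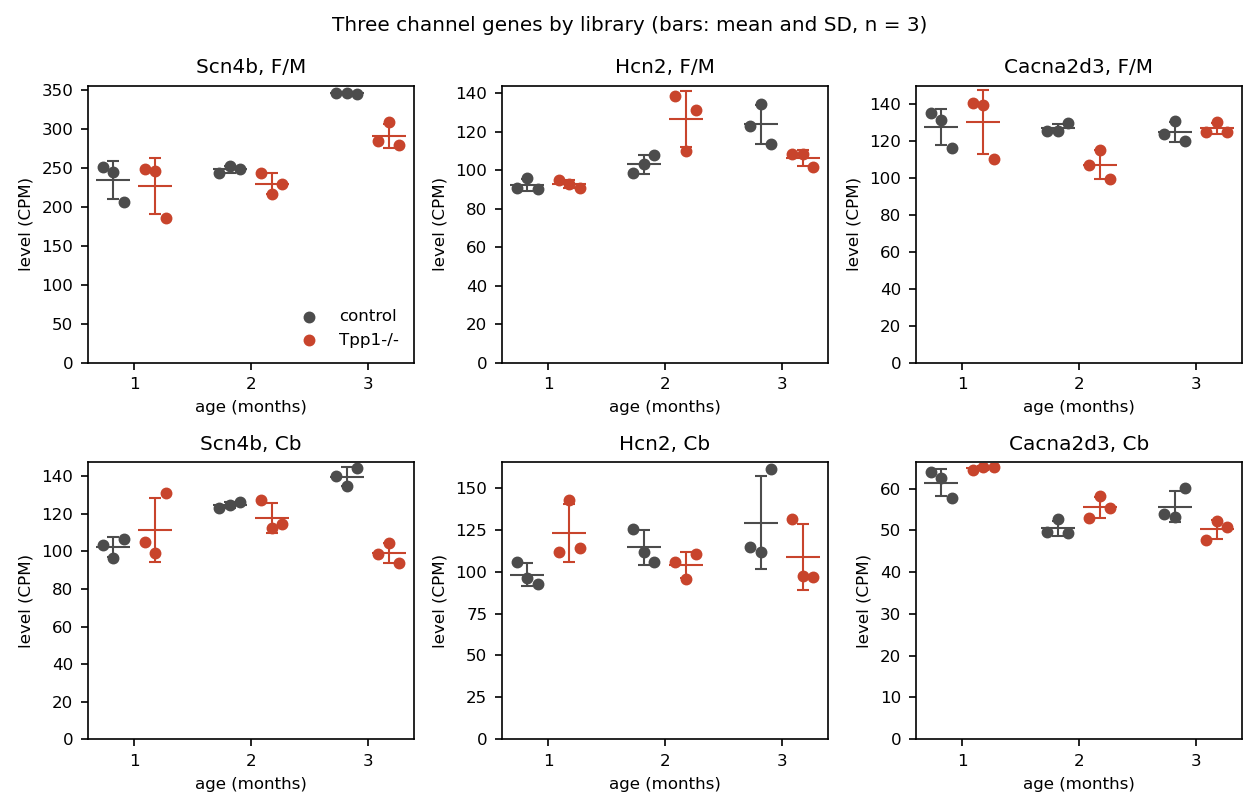
Level in CPM of Scn4b, Hcn2 and Cacna2d3 by library in F/M (top) and Cb (bottom) at 1, 2 and 3 months (grey control, red Tpp1-/-; bars are the mean and SD of 3 libraries). Scn4b separated the genotypes in both regions at 3 months, at 93.8 to 104.4 CPM in Tpp1-/- Cb against 134.7 to 144.6 CPM in control Cb.

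In the 3-month Cb libraries, cortex and striatum markers summed to 21.04 to 31.8 CPM in controls and 15.7 to 19.2 CPM in Tpp1-/-, with 1 of 10 called lower and none at 0 in all libraries of a group. Microglia markers, of which 6 of 10 were called higher, summed to 226.7 to 357.4 CPM in Tpp1-/- and 113.0 to 129.4 CPM in controls. Astrocyte markers summed to 4109 to 4867 CPM in Tpp1-/- and 3760 to 4084 CPM in controls, with 1 of 6, Gfap, called higher. The part of these 3 lists in the Scn4b value was not tested. Of the members next in order of p in 3-month Cb, Cacna2d3 was at 54.0, 53.1 and 60.1 CPM in controls and 47.7, 52.2 and 50.8 CPM in Tpp1-/- (log2 -0.15 ± 0.08, edgeR adjusted p = 0.845). Hcn2 was at 114.9, 111.9 and 161.8 against 131.7, 97.7 and 97.0 CPM (log2 -0.25 ± 0.15, edgeR adjusted p = 0.879). Cacna2d3 did not overlap and Hcn2 did. The Dravet syndrome gene Scn1a, which encodes the main sodium channel of inhibitory interneurons, was at 308.6, 297.3 and 282.9 CPM in controls and 190.4, 307.6 and 280.5 CPM in Tpp1-/- Cb, with overlap between the groups.

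Hcn2 and Cacna2d3 were the members with the smallest p in F/M at 2 months. Hcn2, a pacemaker channel opened by hyperpolarization, was at 98.3, 103.0 and 107.8 CPM in controls and 138.4, 110.1 and 131.1 CPM in Tpp1-/- (log2 0.30 ± 0.09, edgeR adjusted p = 0.0960). Cacna2d3, an alpha2delta subunit, was at 125.6, 125.5 and 129.5 CPM in controls and 106.7, 115.2 and 99.6 CPM in Tpp1-/- (log2 -0.24 ± 0.06, edgeR adjusted p = 0.0716). Neither gene overlapped between the groups, and both were under the fold minimum. With no fold minimum these were 2 of 28 members against a background of 3.17%. Both depended on the setting, with an edgeR adjusted p under 0.1 in 8 of 16 alternatives for Hcn2 (log2 0.22 to 0.38, adjusted p up to 0.623) and in 11 of 16 for Cacna2d3 (log2 -0.31 to -0.20, adjusted p up to 0.594). Cacna2d2 was next, at 69.3, 63.6 and 64.8 against 74.7, 72.6 and 70.4 CPM (log2 0.14 ± 0.06, edgeR adjusted p = 0.276).

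In the interaction test Hcn2 differed between regions by -0.44 ± 0.12 (SE; edgeR adjusted p = 0.0796) and Cacna2d3 by 0.38 ± 0.09 (adjusted p = 0.0384), Cb minus F/M. In Cb at 2 months Hcn2 was at 125.8, 112.1 and 105.9 CPM in controls and 105.7, 95.8 and 110.8 CPM in Tpp1-/-, and Cacna2d3 at 49.6, 52.6 and 49.4 against 53.1, 58.2 and 55.3 CPM. The groups overlapped for Hcn2 and did not for Cacna2d3, which was higher in each Tpp1-/- library. With single libraries left out, the interaction call was lost in 7 of 12 fits for Hcn2 (adjusted p up to 0.236) and in 4 of 12 for Cacna2d3 (up to 0.140), while Cacna1h, Scn3a and Scn3b were called in all 12. The fits without F/M control replicate 3, F/M Tpp1-/- replicate 3 or Cb Tpp1-/- replicate 2 lost both. Without F/M Tpp1-/- replicate 1, Cb control replicate 1 or 2, or Cb Tpp1-/- replicate 1, Hcn2 was lost, and without Cb control replicate 3, Cacna2d3 was lost. Tissue markers also differed in the F/M libraries of this age. Midbrain and thalamus markers summed to 296.2 to 320.0 CPM in Tpp1-/- and 213.5 to 277.8 CPM in controls, with 1 of 13 called higher. Cortex and striatum markers summed to 740.7 to 749.2 against 839.0 to 861.3 CPM, with 0 of 10 called and 4 at an unadjusted p under 0.05, and no marker of either list was at 0 in all libraries of a group. Astrocyte markers summed to 5152 to 6447 against 3760 to 4924 CPM, with 0 of 6 called and 5 higher at an unadjusted p under 0.05. Choroid plexus markers summed to 541.9 to 731.2 against 246.3 to 633.1 CPM, with 7 of 10 called higher. With the midbrain and thalamus score as a covariate, the log2 fold change was 0.33 ± 0.16 for Hcn2 (SE; edgeR adjusted p = 0.623) and -0.28 ± 0.12 for Cacna2d3 (adjusted p = 0.594). Neither passed, and both SEs were wider than without the score. The marker sum separated the groups, so marker level and genotype cannot be told apart in these libraries. The part of the cortex, astrocyte and choroid plexus markers was not tested.

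Among F/M libraries of 3 months, 10 of the 28 members were lower in every Tpp1-/- library than in every control, and 0 were higher. The background was 12.3% of all genes tested in the lower and 11.8% in the higher direction. The 10 genes were Scn1a, Scn2b, Scn4b, Cacnb4, Cacng2, Kcna1, Kcna2, Kcnc1, Kcnd2 and Hcn2, and each difference was small, with log2 values from -0.08 to -0.29. None of these genes passed the test, in which both regions share 1 spread per gene, and the adjusted p values other than that of Scn4b were 1. A fit of only the 6 F/M libraries, again with no fold minimum, put 7 of 28 members lower at an edgeR adjusted p under 0.1. The background was 5.22% of genes. The fit also put 2 other members, Cacna1d and Scn3b, higher, against 5.88%. The 7 were Scn4b (adjusted p = 0.00134), Kcna1 (0.00295), Kcnc1 (0.0151), Hcn2 (0.0255), Scn1a (0.0256), Kcna2 (0.0413) and Cacnb4 (0.0896), and all were under the fold minimum of 1.5. All 7 belonged to the 10 genes above. Those 10 were picked by non-overlap in these same libraries, so the shared genes are no separate support. For Kcna1 the log2 fold change was -0.28 with an SE of 0.05 in that fit and 0.29 in the fit of both regions. Kcna1, the Kv1.1 channel of episodic ataxia, was at 127.3, 120.6 and 131.0 CPM in controls and 105.9, 108.9 and 95.9 CPM in Tpp1-/-. Kcnc1 was at 215.7, 223.1 and 220.2 against 201.7, 189.0 and 195.3 CPM. Cacng2, the stargazin gene, was at 102.5, 105.6 and 103.3 against 98.6, 96.0 and 88.5 CPM, and Hcn2 at 123.1, 134.5 and 113.9 against 108.5, 108.7 and 101.6 CPM.

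In those F/M libraries, midbrain and thalamus markers summed to 223.8 to 261.5 CPM in Tpp1-/- and 305.4 to 315.0 CPM in controls, with 1 of 13 called lower and none at 0 in all libraries of a group. With the level of these markers as a covariate, 0 members were called, the median log2 fold change of the 28 members was -0.159, and the 10 genes ran from -0.12 (Kcnd2) to -0.51 (Kcna1) with edgeR adjusted p values from 0.325 to 0.879. The marker level separated the groups, so it cannot be told apart from genotype in these libraries. Other marker lists separated them too. Oligodendrocyte markers summed to 5284 to 5914 CPM in Tpp1-/- against 6291 to 6523 CPM, markers of the Purkinje list to 1141 to 1220 against 1313 to 1347 CPM and those of the granule cell list to 210.3 to 227.2 against 231.1 to 244.5 CPM. EdgeR called 0 markers of these lists, and 1 of 7, 0 of 9 and 2 of 10 were lower at an unadjusted p under 0.05. Microglia markers summed to 420.4 to 460.7 against 328.2 to 350.8 CPM and astrocyte markers to 6295 to 6917 against 6075 to 6276 CPM, with 1 of 10 and 1 of 6 called higher. The part of these 5 lists in the 10 lower values was not tested. In the other comparisons the members whose groups did not overlap numbered 3 at 1 month and 5 at 2 months in F/M, beside 14.8% and 18.3% of genes in either direction. In Cb they numbered 3, 6 and 2 at the 3 ages, beside 7.97%, 18.1% and 8.67%.

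At 1 month no member was called in either region. In F/M the members with the smallest p were Cacna1g, Kcna1 and Cacnb4. Cacna1g was at 114.0, 100.6 and 115.4 CPM in controls and 94.9, 100.6 and 95.8 CPM in Tpp1-/- (log2 -0.18 ± 0.10). Kcna1 was at 90.8, 116.5 and 102.3 against 85.6, 91.8 and 71.2 CPM (log2 -0.32 ± 0.22), and Cacnb4, a calcium channel beta subunit disrupted in the lethargic mouse, at 412.8, 434.7 and 410.0 against 426.7, 374.2 and 350.9 CPM (log2 -0.13 ± 0.10). All 3 overlapped, and each edgeR adjusted p was 1. In these F/M libraries microglia markers summed to 320.9 to 342.7 CPM in Tpp1-/- and 292.5 to 313.7 CPM in controls, and markers of all neurons to 8180 to 8577 against 8042 to 8111 CPM. EdgeR called 0 of 10 and 0 of 8 of them, with 4 and 0 higher at an unadjusted p under 0.05, and their part in the member values was not tested.

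In all, 3 members had an unadjusted p under 0.05 in Cb at 1 month, and each had an edgeR adjusted p of 0.630. Hcn2 was at 105.9, 96.1 and 92.8 CPM in controls and 112.1, 143.3 and 114.5 CPM in Tpp1-/- (log2 0.33 ± 0.09), with all Tpp1-/- libraries above the controls. Cacnb4 was at 627.7, 711.6 and 710.9 against 499.3, 495.4 and 635.2 CPM (log2 -0.33 ± 0.10), which overlapped in 1 pair of libraries. Kcnma1, the BK channel gated by calcium and voltage, was at 351.5, 324.7 and 400.0 against 206.9, 295.3 and 354.6 CPM (log2 -0.33 ± 0.15), and its lowest library was Tpp1-/- replicate 1. In the same Cb libraries Purkinje cell markers summed to 7709 to 8003 CPM in Tpp1-/- and 8174 to 8763 CPM in controls, and microglia markers to 126.6 to 132.9 against 100.8 to 119.0 CPM. EdgeR called 0 of 9 and 0 of 10 of them, with 1 lower and 4 higher at an unadjusted p under 0.05. The part of both lists in the member values was not tested.

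That library stood apart from the rest, as did Tpp1-/- replicate 1 of Cb at 3 months, which is another mouse. The median log2 deviation of the 28 members from the control mean was -0.41 in replicate 1 of 1 month and -0.50 in replicate 1 of 3 months, while the other 4 Tpp1-/- Cb libraries of those ages lay between -0.00476 and 0.117. Genes outside the group that span over 100 kb deviated by -0.26 in both libraries, against 0.04 and 0.06 for shorter genes. Of the members, 18 span over 100 kb and 10 do not, and their spans run from 5.99 to 816.9 kb with a median of 144.5 kb. The 10 shorter members had median deviations of -0.28 and -0.43 in the same libraries.

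**Figure D5:**
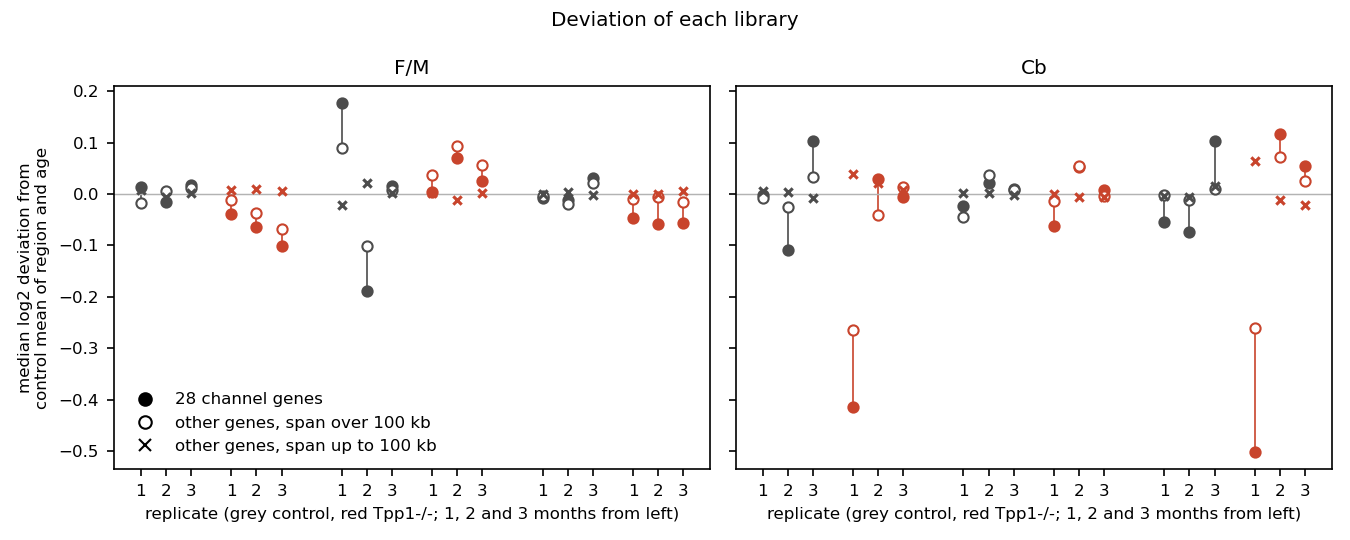
Median log2 deviation of each library from the control mean of its region and age, for the 28 channel genes (filled circles), other genes with a span over 100 kb (open circles) and other genes with a span up to 100 kb (crosses), in F/M and Cb. Replicate 1 of Tpp1-/- Cb lies lowest at 1 month (-0.41 for the channel genes) and at 3 months (-0.50).

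Kcna1 was at 86.2 CPM in replicate 1 of 1-month Tpp1-/- Cb and 200.2 and 187.9 CPM in the others. At 3 months it was at 50.7 CPM in replicate 1 and 162.1 and 156.2 CPM in the others. Kcna1 spans 5.99 kb, the shortest span of the group. Cacna1e, the R-type pore, was at 150.7 CPM in replicate 1 of 3 months and 321.8 and 302.7 CPM in the others, with controls at 267.1, 247.5 and 268.6 CPM. Control Kcna1 was at 179.0 to 210.9 CPM at 1 month and 139.4 to 178.7 CPM at 3 months. Without replicate 1 the median log2 fold change of the members moved from -0.13 to -0.02 at 1 month and from -0.12 to 0.05 at 3 months, and the count of members called stayed at 0.

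In F/M at 2 months the controls themselves spread along the same line, with median member deviations of 0.18, -0.19 and 0.02 in replicates 1, 2 and 3. Long genes outside the group deviated by 0.09, -0.10 and 0.01 in these libraries. Kcna1 was at 80.7, 36.3 and 63.2 CPM in those controls, and Cacna1e at 475.1, 304.4 and 396.7 CPM. The Tpp1-/- libraries were closer together, at 64.0, 74.1 and 74.4 CPM for Kcna1 and 414.2, 414.0 and 399.7 CPM for Cacna1e. In Cb at 2 months, where the 3 calls were made, the members' median deviation ran from -0.06 to 0.05 over the 6 libraries.

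By function, the P/Q-, N- and R-type pores, the L-type pores, the Kv1 and Kv3 channels and the Kv4 channels had 0 members called and 0 at an unadjusted p under 0.05 in all 6 genotype comparisons of the fit over both regions. In the fit of only the 6 F/M libraries of 3 months, Kcna1, Kcna2, Kcnc1 and Cacna1d had an edgeR adjusted p under 0.1 (0.0973 for Cacna1d), and Cacna1e and Kcnd2 had an unadjusted p under 0.05. Cacna1a was at 452.4, 387.5 and 415.9 CPM in 2-month Cb controls and 438.9, 403.7 and 448.7 CPM in Tpp1-/-, with a log2 fold change of 0.04 ± 0.08. Scn8a, the Nav1.6 pore of the axon initial segment, was at 352.3, 345.2 and 348.6 against 353.0, 353.6 and 338.0 CPM in the same libraries, with a log2 value of 0.00 ± 0.07. Kcnd2 differed by 0.03 ± 0.06 and Kcnc1 by -0.01 ± 0.06 there. Outside the group, edgeR called 0 of 69, 0 of 70 and 0 of 68 further channel genes in F/M at 1, 2 and 3 months and 0 of 69 in Cb at 1 month. At an unadjusted p under 0.05, these comparisons had 1, 4, 1 and 2 such genes higher, beside 0.904%, 9.61%, 3.8% and 4.31% of all genes tested. They had 1, 11, 5 and 2 lower, beside 0.982%, 7.27%, 2.14% and 3.35%. DESeq2 and limma-voom were not counted over these genes. In Cb at 3 months edgeR called 1 of 68, and it was lower, beside 0.186% of all genes tested called lower. This gene was Kcnf1, a silent potassium channel subunit, at 4.13, 3.90 and 2.41 CPM in controls and 2.23, 1.99 and 1.596 CPM in Tpp1-/- (log2 -0.83 ± 0.19, adjusted p = 0.0749).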

How the data were processed

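RNA-seq libraries (TruSeq stranded mRNA, single-end reads of 50 nt) were aligned by the authors with STAR to mm10, and the deposited whole-number counts per gene came from featureCounts. Per the file headers, the annotation was GENCODE M21, M16 and M18 and the strand setting 1, 2 and 1 at 1, 2 and 3 months, and the versions were 1.6.3, 1.6.2 and 1.6.2. Counts of each age were filtered by filterByExpr, which left 17916, 17229 and 17224 genes, scaled by TMM and tested with the quasi-likelihood test of edgeR 4.0.16 (R 4.3.3) over the 4 groups of the age, with Benjamini-Hochberg adjustment over all genes tested. Calls needed an adjusted p under 0.1 and, between groups, a fold change of at least 1.5. Alternatives used DESeq2 1.42.0, limma-voom (limma 3.58.1), other scalings, filters, covariates and single libraries left out. The scripts were tested on simulated counts. Members called, members called in a difference between regions or ages, and the 3 with the smallest p where none was called were given by library, and at most 6 further channel genes per comparison were named, of which 1 is not reported here. The members and lists were chosen with earlier results of these data known. The spread of each gene was estimated between mice within the 4 groups of an age, both regions together, and fits of only the 6 libraries compared are given where they change a call. Library totals limit precision for genes at low counts, and no sequence of the members was used here.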

Additional observations from a re-analysis of the deposited data

Results flagged for a closer look

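At 2 months the response to genotype differed between cerebellum and forebrain/midbrain for 5 members, by a test of the difference itself (edgeR, Cb minus F/M, log2 scale). The differences were -1.31 for Scn3a, -1.27 for Cacna1h, -1.02 for Scn3b, -0.44 for Hcn2 and 0.38 for Cacna2d3. In Cb the first 3 genes were lower in 3 of 3 Tpp1-/- libraries than in any control, whereas Hcn2 and Cacna2d3 separated the genotypes in F/M. Cacna2d3 also did so in Cb, where it was higher in 3 of 3 Tpp1-/- libraries than in any control. Summed midbrain and thalamus markers were at 178.0 to 202.3 CPM in Tpp1-/- and 267.8 to 307.1 CPM in control Cb, and at 296.2 to 320.0 against 213.5 to 277.8 CPM in F/M. Their part in these differences was not tested. Without F/M control replicate 3, without F/M Tpp1-/- replicate 3 or without Cb Tpp1-/- replicate 2, the count was 3 in place of 5.

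The response of Cacna1h in Cb differed between 2 and 3 months by 1.05 on the log2 scale. It was lost in 10 of 12 fits without a single Cb library. The strand setting of the counting was 2 at 2 months and 1 at 3 months and the annotation release differed, so age and these settings cannot be told apart.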

How the results depend on the processing

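In Cb at 2 months the count was 3 in each alternative apart from a pair. With the midbrain and thalamus score as a covariate, 0 members were called and the log2 fold change of Scn3a turned to 0.54. That score is collinear with genotype in these libraries. The median log2 fold change of the members there was -0.18. In a fit of only the 6 libraries compared and with no fold minimum, added after the data were seen, 9 members were called in F/M at 3 months, 5 in Cb at 2 months and 0 in the other 4 comparisons. Without a fold minimum alone, 1 member was called in Cb at 3 months and 2 in F/M at 2 months. For the difference between 2 and 3 months in Cb, 0 members were called at an adjusted p under 0.05 and with limma-voom, and 3 with no filter. The cause of these changes was not tested. In F/M the median at 1 month moved to 0.012 with the long-gene score as a covariate and to -0.003 with that of genes over 200 kb, and at 3 months to -0.159 with the midbrain and thalamus score and 0.001 with the score over 200 kb.

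With single libraries left out, members called ran from 0 to 1 in Cb at 3 months, where Cb control replicate 3 decided the 1, from 0 to 1 in the difference between ages in Cb, and from 3 to 6 in the difference between regions at 2 months. The count was 3 to 3 in Cb at 2 months and 0 in the other genotype comparisons.

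A fit with the replicate number as a block called 3 members in Cb at 2 months and 0 in the other 5 genotype comparisons, and it changed no other count. Same-numbered control and Tpp1-/- libraries did not all correlate above 0.1 in any region and age, so the numbers were not taken to pair mice. The labels do not state whether the same number in F/M and Cb is 1 mouse. The deviations of such libraries correlated at 0.198, 0.124 and 0.131 in the 1-month controls, 0.16, 0.107 and 0.0947 in the 1-month Tpp1-/- group, and -0.0395 to 0.0987 at 2 and 3 months. With the same number as 1 mouse, the block gave the same counts of 0, 5 and 0 differences between regions. The low counts of Cacna1h, Scn3a and Scn3b in Cb limit how closely their fold changes are known.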
